A study of Mus musculus with 8 samples.

Results

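The 10 endothelial genes described here build or mark the blood-brain barrier, and they were measured by RNA sequencing in the right cerebral cortex of mice after carotid narrowing or sham surgery. They were chosen by symbol: the tight junction genes Cldn5, Ocln and Tjp1, the transporter genes Mfsd2a, Slco1a4, Abcb1a and Slc2a1, the pan-endothelial adhesion genes Pecam1 and Cdh5, and Plvap, a gene of leaky vessels. All 10 were found among the 54752 genes of the count tables, and all 10 passed the filter on low counts that left 17136 genes for testing. Both groups were wild-type male C57BL/6 mice (C57BL/6 J in the study's methods) aged 14 weeks, sampled 3 weeks after their operation, and each library came from 1 mouse. The 4 BCAS mice had bilateral carotid artery stenosis, in which a microcoil is placed around each common carotid artery, with the narrower coil on the right side, and the 4 Sham mice had the operation without coils. The model narrows the arteries of both sides from the outside, and the tissue was whole cortex, so vessels were a small part of each library.

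The capillaries of the brain are sealed by tight junctions between endothelial cells, carry nutrients through dedicated transporters, pump out foreign compounds and form few transport vesicles. This state depends on Wnt and beta-catenin signalling from the surrounding tissue. Plvap forms the diaphragms of fenestrae and caveolae, is found in vessels without a barrier such as those of the choroid plexus, and is low in capillaries of the healthy cortex. A rise of Plvap with a fall of claudin-5 and of transporters is the textbook picture of a lost barrier state.

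In these libraries Plvap was not called higher, and neither Cldn5 nor any of the 4 transporter genes was called lower. Calls in whole cortex with 4 mice a group do not show whether the barrier state was kept or lost. In BCAS cortex 4 of the 10 genes were higher at an adjusted p under 0.05 (edgeR's quasi-likelihood F-test, Benjamini-Hochberg over all genes tested), namely Cdh5, Pecam1, Tjp1 and Abcb1a, by 1.33- to 1.83-fold. None of the 10 was lower at that threshold, also without adjustment and by DESeq2 and limma-voom, and those tools called the same 4 genes higher. Plvap and Mfsd2a had the only negative log2 fold changes, and neither passed the test. Over all genes tested, 19.2% were higher and 12.8% were lower at the same threshold. None of the 10 also had a log2 fold change above 1, which 11% of all genes did, and 0 did so by an unadjusted p under 0.05 as well. The median log2 fold change of the 10 genes was 0.39, and that of all genes was -0.01.

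The libraries held 16759364 to 21794435 counts, and a count of 0 allowed at most 0.187 CPM, the count scaled to the library total after TMM normalization, far under the level of every gene described. Counting error is the only error this limit covers. The cortex label was checked by markers: neuron and astrocyte genes were high in all 8 libraries. The libraries of BCAS mouse 1 and BCAS mouse 2 stood at the ends of the BCAS group. Summed CPM of 12 microglia and macrophage markers was 4706 in BCAS mouse 1, 1272 in BCAS mouse 2, 2355 in mouse 3 and 2490 in mouse 4, against 323 to 391 in Sham mice. Sham mouse 3 carried choroid plexus RNA: Ttr, the transthyretin gene of that epithelium, was at 696 CPM there and at 7.72 to 44.4 CPM in the other libraries. In whole tissue, fewer or more endothelial cells and less or more RNA per cell cannot be told apart.

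The sequence before annotated gene starts was searched for binding motifs of barrier and hypoxia regulators. The RefSeq promoter table (GRCm38.p6, the build called mm10) matched 7 of the 10 genes with 8 windows. For Abcb1a its start lies 93.0 kb upstream of the gene start in the annotation used for counting, and for Tjp1 157 kb inside the gene, so these windows are not next to the starts of the counted genes. Cldn5, Mfsd2a and Slco1a4 are shown because they cover the junction, a transporter that did not rise and a transporter nearly restricted to brain endothelium. Each sequence is the 250 bases before the annotated start, 5′ to 3′ on the gene's strand, and capitals mark motif matches on either strand.
Cldn5, chr16:18776597-18776846, plus strand: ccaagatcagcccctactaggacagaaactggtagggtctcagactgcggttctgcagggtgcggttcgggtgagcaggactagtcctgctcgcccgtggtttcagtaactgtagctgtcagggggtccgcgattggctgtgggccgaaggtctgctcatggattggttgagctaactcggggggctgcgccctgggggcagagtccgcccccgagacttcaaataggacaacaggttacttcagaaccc
Mfsd2a, chr4:122961189-122961438, minus strand: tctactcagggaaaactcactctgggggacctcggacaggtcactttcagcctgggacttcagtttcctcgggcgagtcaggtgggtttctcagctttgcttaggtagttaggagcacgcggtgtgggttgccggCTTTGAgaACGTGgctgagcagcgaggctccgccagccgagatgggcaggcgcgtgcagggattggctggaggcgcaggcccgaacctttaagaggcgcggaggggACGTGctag
Slco1a4, chr6:141856221-141856470, minus strand: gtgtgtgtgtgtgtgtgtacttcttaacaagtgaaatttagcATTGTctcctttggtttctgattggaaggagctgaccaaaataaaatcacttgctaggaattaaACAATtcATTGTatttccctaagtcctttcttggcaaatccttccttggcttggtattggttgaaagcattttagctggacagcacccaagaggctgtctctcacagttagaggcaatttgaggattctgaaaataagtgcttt
The motifs searched on both strands were ETS (CCGGAA), SOX (ACAAT), TCF/LEF, the partner of beta-catenin (CTTTGA), FOX (GTAAACA), the hypoxia response element (ACGTG), NF-kappaB (GGGNNNTTCC) and the interferon-stimulated response element (GAAANNGAAA). The Mfsd2a window held CTTTGA at position -115 and ACGTG at -107 and -9, counted back from the start, and its matches did not overlap. The Slco1a4 window held SOX letters at -208, -144 and -137, and the Cldn5 window held none of the motifs. CTTTGA stood in the windows of Mfsd2a and of the distant Abcb1a start, and in 13.8% of the 32851 promoters of the table. ACGTG stood in those of Mfsd2a and Slc2a1, and in 16.6% of all promoters. ETS letters stood in a window of Ocln (12.03% of all), SOX letters in Slco1a4 alone (27.7%) and FOX letters in that of Abcb1a (3.17%), while NF-kappaB (4.65%) and interferon-stimulated (2.98%) letters were in none of the 8 windows.

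Levels can be compared between genes only per length, so CPM was divided by kilobases of exon. In Sham cortex Cldn5 was highest at 37.5 ± 6.72 CPM per kb (SD, n = 4), followed by Slc2a1 at 27.1 ± 1.84 and Tjp1 at 17.1 ± 0.54. Slco1a4 (12.8 ± 0.94), Abcb1a (9.80 ± 1.33) and Mfsd2a (7.60 ± 0.36) came next. At the low end were Plvap (5.40 ± 0.58), Pecam1 (4.93 ± 0.49), Cdh5 (4.40 ± 0.56) and Ocln (2.40 ± 0.52). Among neighbours in this order, the mice of Cldn5 and Slc2a1, of Abcb1a and Mfsd2a, of Plvap and Pecam1, and of Pecam1 and Cdh5 overlapped, and the other neighbours did not. In BCAS cortex the first 5 genes kept their order, while Cdh5 (8.03 ± 2.37) and Pecam1 (7.35 ± 1.68) stood above Mfsd2a (6.65 ± 1.46) and Plvap (4.21 ± 1.09), with Ocln last (3.16 ± 0.49). In that group the neighbours from Cdh5 down to Ocln all overlapped.

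**Figure D1:**
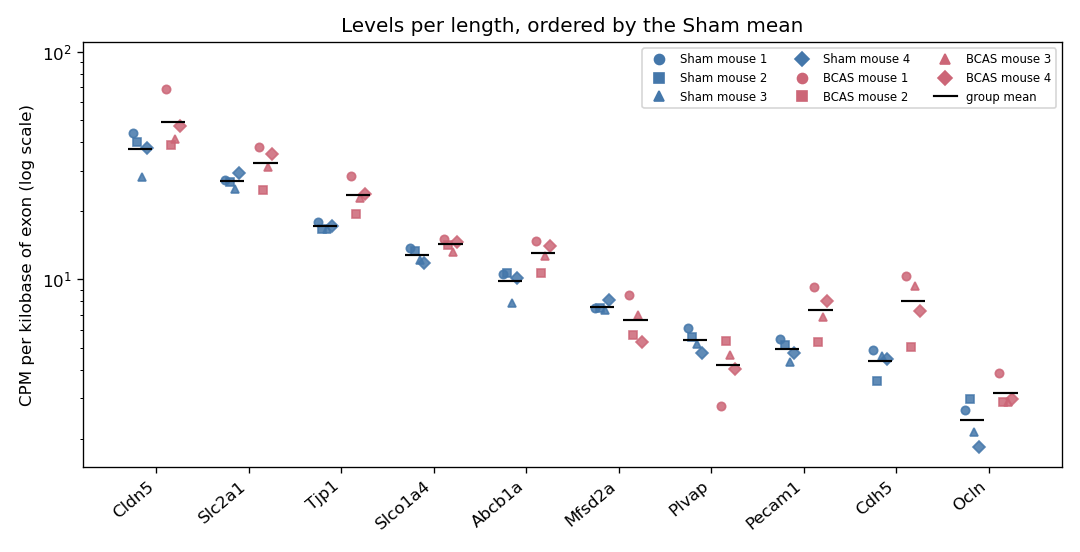
CPM per kilobase of exon (log scale) of the 10 genes in each mouse, ordered by the Sham mean, with blue points for Sham, red points for BCAS and a bar at each group mean. Cldn5 is highest in both groups, and Cdh5 and Pecam1 pass Plvap and Mfsd2a in BCAS.

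Claudin-5, encoded by Cldn5 (chr16:18776847-18778262), is the claudin that seals brain capillaries. Cldn5 was at 62.0, 57.0, 39.8 and 53.4 CPM in Sham mice 1 to 4 and at 96.8, 55.2, 58.4 and 66.7 CPM in BCAS mice 1 to 4. BCAS mouse 1 stood highest and Sham mouse 3 lowest, and the other mice of the groups overlapped. The log2 fold change was 0.39 ± 0.20 (SE), with a 95% confidence interval from -0.06 to 0.83 and an adjusted p of 0.154 by edgeR. Without BCAS mouse 1 the log2 fold change was 0.21, as it was with sample quality weights in limma-voom.

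Occludin, from Ocln (chr13:100496507-100552718), spans the membrane at tight junctions and was the lowest of the 10 genes per length. It was at 11.3, 12.5, 9.04 and 7.72 CPM in the Sham mice and at 16.4, 12.3, 12.2 and 12.5 CPM in the BCAS mice. BCAS mice 2 to 4 lay together at the upper end of the Sham range, and BCAS mouse 1 was apart from them. The log2 fold change was 0.40 ± 0.18 (SE, interval -0.01 to 0.80), and the adjusted p was 0.114.

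Tjp1 (chr7:65296165-65527781) encodes ZO-1, a scaffold that ties claudins and occludin to actin and that neurons and glia also express at their junctions. It was at 139, 130.4, 131 and 134 CPM in Sham and at 223, 151, 177 and 185 CPM in BCAS mice. The 4 Sham mice were close together, and every BCAS mouse was above them. Tjp1 was 1.38-fold higher, a log2 fold change of 0.46 ± 0.12 (SE, interval 0.20 to 0.72) with an adjusted p of 0.0191. Without Sham mouse 2 or Sham mouse 4 the adjusted p was 0.0576 or 0.0543. Without BCAS mouse 1 it was 0.0108, at a log2 fold change of 0.39.

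**Figure D2:**
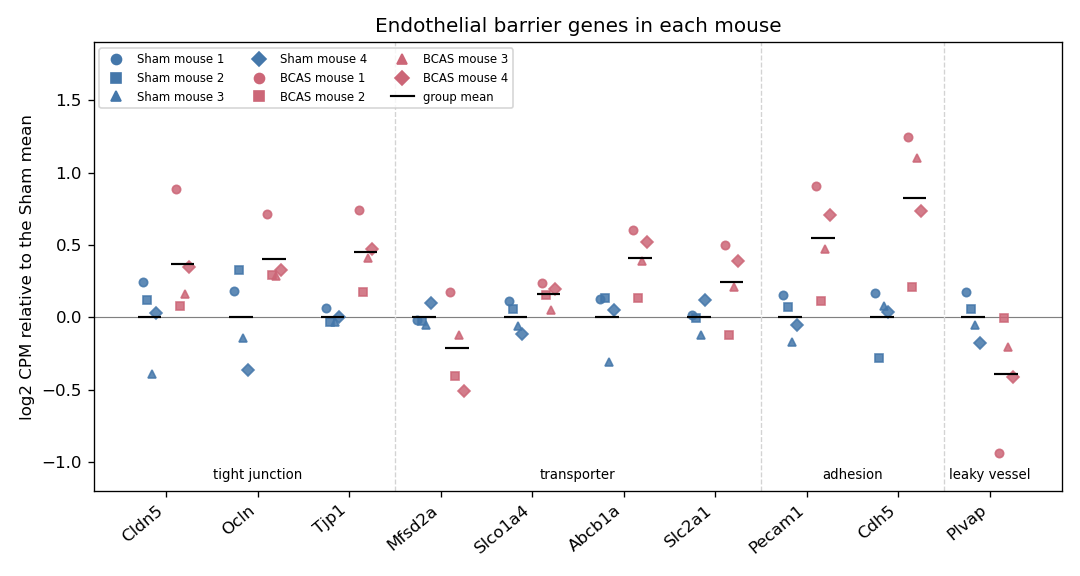
Log2 CPM of each gene relative to its Sham mean (vertical axis) in each of the 8 mice, with blue points for Sham, red points for BCAS, 1 marker shape per mouse number and a bar at each group mean. BCAS mouse 1 (red circles) is the highest library for 9 of the 10 genes and the lowest for Plvap.

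Among the transporters, Mfsd2a alone had a negative log2 fold change, and it was not called. Mfsd2a (chr4:122946850-122961188) carries lipids with docosahexaenoic acid into the brain and holds down vesicle transport across the endothelium. It was at 16.8, 16.8, 16.5 and 18.3 CPM in the Sham mice and at 19.3, 12.9, 15.7 and 11.99 CPM in the BCAS mice. The Sham mice were close together, with BCAS mouse 1 above all of them and the other 3 BCAS mice below. The log2 fold change was -0.19 ± 0.15 (SE, interval -0.54 to 0.16), with an adjusted p of 0.358. Without BCAS mouse 1 it was -0.31 at an adjusted p of 0.0997, and without BCAS mouse 2 or 4 it was -0.09 or -0.10 (adjusted p = 0.667 and 0.653).

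Slco1a4 (chr6:141805440-141856199) encodes an organic anion transporter of the barrier. Its CPM was 88.5, 85.2, 78.2 and 75.4 in Sham and 96.4, 90.8, 84.4 and 93.7 in BCAS mice. BCAS mouse 3 fell within the Sham range and the other BCAS mice were above it. The log2 fold change of 0.16 ± 0.08 (SE, interval -0.02 to 0.34) had an adjusted p of 0.152, and its interval was the narrowest of the 10 genes.

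Abcb1a (chr5:8660077-8748575) encodes P-glycoprotein, the drug efflux pump of the capillary wall. It was at 58.1, 58.4, 43.0 and 55.3 CPM in Sham cortex and at 81.2, 58.5, 69.8 and 76.6 CPM after BCAS. The groups did not overlap, but only by the small gap between Sham mouse 2 and BCAS mouse 2. Abcb1a was 1.33-fold higher, a log2 fold change of 0.41 ± 0.13 (SE, interval 0.12 to 0.71) with an adjusted p of 0.0411. The call was lost whenever 1 mouse other than BCAS mouse 2 was left out, with adjusted p from 0.0514 to 0.0973. Of the 100-base windows of Abcb1a transcripts, 13.4% also occur in other genes, Abcb1b and Abcb4 among them. How far this affected the Abcb1a counts was not measured. The exons of Abcb1a overlap Gm42686 on the other strand over 10.1% of their bases. Abcb1b, the second P-glycoprotein gene, was itself higher by 2.01 on the log2 scale (adjusted p = 0.0030), from 4.40 ± 0.35 to 17.7 ± 7.70 CPM (SD, n = 4 each).

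Slc2a1 (chr4:119108711-119137983) encodes GLUT1, the glucose transporter of the barrier and of astrocytes, and is a known target of hypoxia signalling. It was at 95.8, 94.3, 87.1 and 102.9 CPM in Sham and at 134, 87.1, 109 and 124 CPM in BCAS mice. BCAS mouse 2 was the lowest of all 8, level with Sham mouse 3, while the other BCAS mice were above every Sham mouse. The log2 fold change was 0.26 ± 0.13 (SE, interval -0.04 to 0.55) and the adjusted p was 0.150. Without BCAS mouse 2 it was 0.40 with an adjusted p of 0.00776, and with all mice and sample quality weights in limma-voom it was 0.24 with an adjusted p of 0.0440. Other genes shared 0.158% of the 100-base windows of Slc2a1 and 0.640% of those of Slco1a4, and none of those of the other 7 genes besides Abcb1a.

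The adhesion genes had the largest increases of the 10. Pecam1 (chr11:106654217-106750628) encodes CD31, which endothelial cells share with platelets and leukocytes. It was at 34.0, 32.1, 27.1 and 29.4 CPM in the Sham mice and at 57.5, 33.1, 42.4 and 50.02 CPM in the BCAS mice. BCAS mouse 2 lay within the Sham range and the other 3 BCAS mice above it. Pecam1 was 1.49-fold higher, a log2 fold change of 0.58 ± 0.16 (SE, interval 0.21 to 0.94) with an adjusted p of 0.0283. Leaving out any Sham mouse, or BCAS mouse 3 or 4, ended the call with adjusted p from 0.0539 to 0.0743.

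Cdh5 (chr8:104101625-104144511) encodes VE-cadherin, the adherens junction protein of endothelial cells. It was at 20.6, 15.1, 19.3 and 18.8 CPM in Sham and at 43.7, 21.2, 39.5 and 30.6 CPM in BCAS mice. Every BCAS mouse was above every Sham mouse, BCAS mouse 2 by the least. Cdh5 was 1.83-fold higher, a log2 fold change of 0.87 ± 0.21 (SE, interval 0.39 to 1.35) with an adjusted p of 0.0183. The adjusted p was 0.0565 without Sham mouse 2, 0.0503 without Sham mouse 4 and 0.0518 without BCAS mouse 3, and without BCAS mouse 2 the log2 fold change was 1.07.

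Plvap (chr8:71497765-71511752) was lower in the BCAS mean. It was at 12.1, 11.1, 10.3 and 9.41 CPM in the Sham mice and at 5.54, 10.7, 9.24 and 8.01 CPM in the BCAS mice. BCAS mouse 1, the highest library for each of the other 9 genes, was the lowest here, BCAS mouse 2 lay inside the Sham range and mice 3 and 4 were under all Sham mice. Summed CPM of 8 neuron markers ranked the BCAS mice alike, at 3610, 7769, 6027 and 5455 in mice 1 to 4. The part of other cells in the Plvap values was not tested. The log2 fold change was -0.36 ± 0.20 (SE) with an adjusted p of 0.184. Its 95% confidence interval ran from -0.81 to 0.09, with the upper end at a 1.06-fold increase in whole tissue. Without BCAS mouse 1 the log2 fold change was -0.18. Sham mouse 3, with its choroid plexus RNA, had 10.3 CPM of Plvap, between the other Sham mice, and without that mouse the log2 fold change was -0.38.

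**Figure D3:**
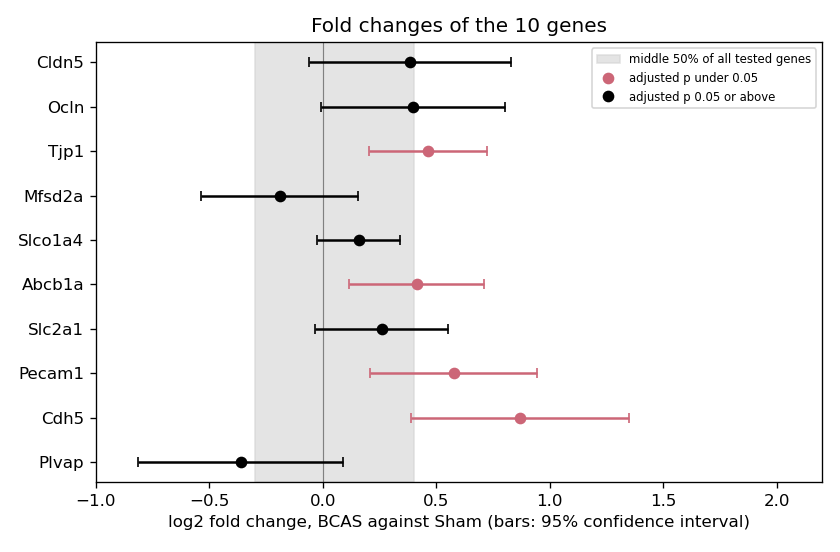
Log2 fold change of BCAS against Sham (horizontal axis) for each of the 10 genes with its 95% confidence interval, red where the adjusted p was under 0.05, over a grey band for the middle 50% of all genes tested. Tjp1, Abcb1a, Pecam1 and Cdh5 are red, and the intervals of the other 6 cross 0.

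In all, 3 of the 10 genes (Tjp1, Abcb1a and Cdh5) did not overlap between the groups and were higher, and 0 were lower. Of all genes tested, 18.5% did not overlap and were higher, and 16.3% did not overlap and were lower. Within the BCAS group, mouse 2 was the lowest for 6 of the 8 genes with a positive log2 fold change. The same mouse had the fewest microglial and the most neuronal counts of its group.

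Whether the genes changed unequally was tested by ratios within a library, which do not depend on library scaling. Plvap was set over each of the other 9 genes, and each of the other 8 over Cdh5, which gave 17 pairs. All 17 log2 ratios were lower in the BCAS mean, a sign fixed by the choice of pairs, since Plvap had the lowest and Cdh5 the highest log2 fold change of the 10 genes. None passed an adjusted p under 0.05 in exact two-sided permutation tests, whose smallest possible p of 0.0286 became 0.108 after adjustment over 17 pairs. By unadjusted p under 0.05 there were 4 pairs, and with 4 mice against 4 such a p is the same as no overlap between the groups.

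The log2 ratio of Plvap over Cdh5 was -0.76, -0.44, -0.90 and -0.99 in Sham cortex and -2.96, -0.99, -2.08 and -1.92 in BCAS cortex. BCAS mouse 2 was level with Sham mouse 4, and the other 3 BCAS mice were well under all Sham mice. The difference was -1.21 (exact permutation p = 0.0571, and 0.108 after adjustment). These genes have the lowest and the highest fold change of the 10, so this p is only a description. Plvap over Ocln and Plvap over Slco1a4 were lower in 4 of 4 BCAS mice than in any Sham mouse. Their differences were -0.79 and -0.55 (exact permutation p = 0.0286 each, and 0.108 after adjustment). Without BCAS mouse 1 these differences were -0.51 and -0.34. Plvap over Mfsd2a differed least, by -0.18 (exact permutation p = 0.80), and without BCAS mouse 1 the difference was 0.14.

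Among the 8 genes other than Plvap, Mfsd2a differed most from Cdh5. The log2 ratio of Mfsd2a over Cdh5 was -0.29, 0.15, -0.23 and -0.04 in Sham and -1.17, -0.72, -1.32 and -1.35 in BCAS mice, so every BCAS mouse was under every Sham mouse. The difference was -1.04 (exact permutation p = 0.0286, and 0.108 after adjustment). Mfsd2a had the lowest fold change of these 8 genes and Cdh5 the highest of all 10, so this p is only a description. Slc2a1 over Cdh5 also did not overlap, from 2.17 to 2.63 in Sham and from 1.47 to 2.03 in BCAS mice. That difference was -0.58 (exact permutation p = 0.0286, and 0.108 after adjustment). The tight junction genes over Cdh5 differed by -0.37 to -0.46 with overlap, and Pecam1 over Cdh5 by -0.27. Without Sham mouse 2 the Ocln difference was -0.22 and the Pecam1 difference -0.15, and without BCAS mouse 3 those of Cldn5 and Pecam1 were -0.29 and -0.15.

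**Figure D4:**
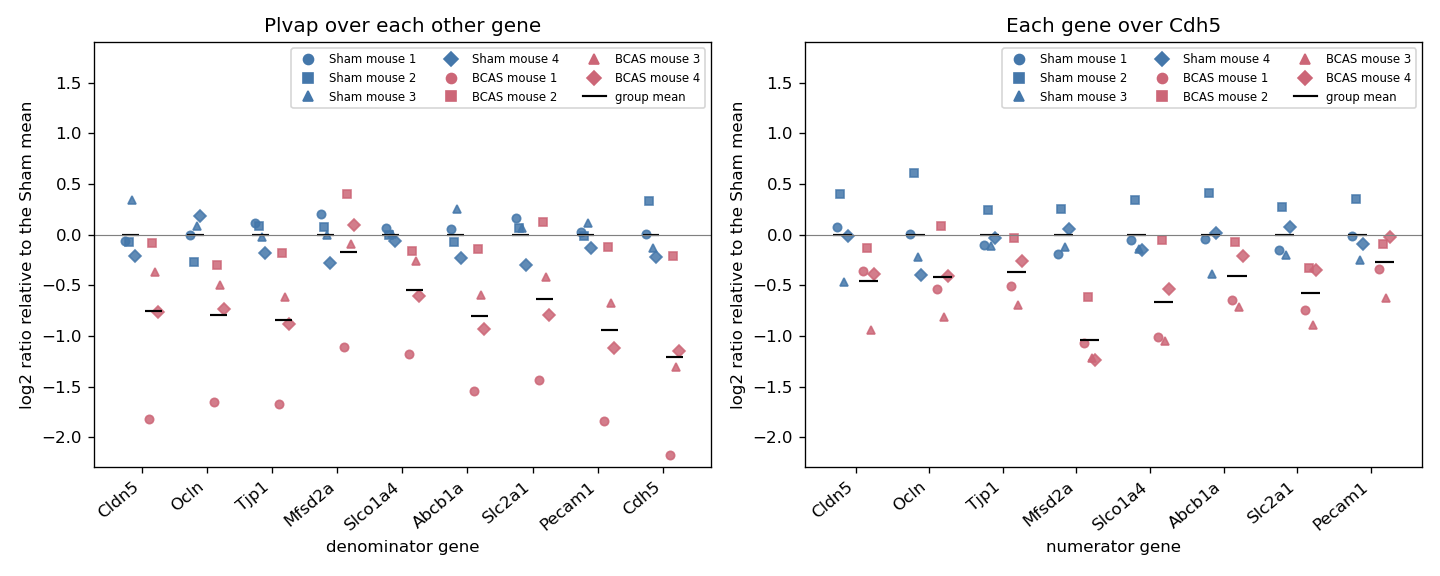
Log2 ratios within each library relative to the Sham mean (vertical axes), of Plvap over each other gene on the left and of each gene over Cdh5 on the right, with blue points for Sham mice, red points for BCAS mice and bars at group means. The red means lie below 0 for all 17 pairs, and BCAS mouse 2 (red squares) is nearest to the Sham mice in most.

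Other genes of the barrier gave the context, and their counts stand beside the 19.2% of all genes tested that were higher, the 12.8% that were lower and the 49.5% that had a positive log2 fold change. No list was tested against these shares. Of 19 other junction genes tested (of 21 listed), 5 were higher and 1 was lower (all genes 19.2% and 12.8%), with a median log2 fold change of 0.28. F11r, the junctional adhesion molecule A that leukocytes and platelets also carry, was higher by 2.50 (adjusted p = 0.0024). Nectin2, an adhesion molecule of adherens junctions, was higher by 0.80 (adjusted p = 0.0130), and Magi1, a junction scaffold, was lower by a log2 fold change of -0.53 (adjusted p = 0.0188).

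Of 22 other transporter genes, 6 were higher and 1 was lower (all genes 19.2% and 12.8%), with a median of 0.20. Slco2b1, an organic anion transporter that microglia also express, had a log2 fold change of 2.63 (adjusted p = 0.0025), and Slc16a1, the monocarboxylate transporter MCT1, one of 1.14 (adjusted p = 0.0071). The gene that was lower was Tfrc, the transferrin receptor, at -0.68 (adjusted p = 0.0074), and it fell outside the rule for named genes. Neurons express Tfrc as well.

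Caveola and transcytosis genes form the vesicles that Mfsd2a restrains, and Plvap is a part of such vesicles. Fibroblasts and mural cells also express caveola genes, and their part was not tested. Here 5 of 10 were higher and 0 were lower (all genes 19.2% and 12.8%), with a median log2 fold change of 0.38. Cav1, the caveolar coat protein, went from 19.1 ± 0.86 to 43.3 ± 13.3 CPM (SD, n = 4 each), a log2 fold change of 1.19 (adjusted p = 0.0059). Dnm2, the dynamin that cuts vesicles free in most cells, and Ehd2, which sits at the caveolar neck, were higher by 1.01 and 1.24.

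Of 28 other pan-endothelial genes, 6 were higher and 0 were lower, and 26 had a positive log2 fold change with a median of 0.40, close to the 0.39 of the 10 genes described. The 6 called are near the share of 19.2% over all genes, of which 49.5% were positive. Those with the smallest p were Vwf, the von Willebrand factor (log2 fold change 1.68), Fli1, a transcription factor of endothelium and blood cells (2.10), and Clec14a, an endothelial lectin (1.25). The summed CPM of all 28 was 772, 734, 591 and 722 in Sham and 1259, 708, 891 and 947 in BCAS mice. BCAS mouse 2 was within the Sham range and the other 3 were above it, the same arrangement as for Pecam1. Of 20 Wnt and beta-catenin barrier program genes, 6 were higher and 0 lower (median 0.29, against 19.2% higher over all genes). Lrp5 and Adgra2, parts of receptor complexes, were at 1.47 and 0.73 and the transcription factor Lef1 at 0.70. Axin2 (0.04), Apcdd1 (0.22) and Nkd1 (-0.31) were among those not called.

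Other genes of fenestrated and sprouting vessels mostly had positive log2 fold changes, unlike Plvap. Of 16 tested (of 17), 13 were positive, 6 were called higher and 0 lower (all genes 19.2% and 12.8%), with a median of 0.62. Esm1 (0.15), Apln (-0.14) and Cd276 (-0.02) were among those not called. Cells outside vessels can also express genes of this list, and their part was not tested. Pdgfb, the ligand that draws pericytes, was higher by 0.77, Adm, encoding adrenomedullin, by 1.19 and Angpt2, a vessel-destabilising ligand, by 1.84 (adjusted p = 0.0088, 0.0131 and 0.0146). Of 5 activated endothelium genes tested (of 7), 3 were higher: Ch25h, Icam1 and Vcam1, at 5.11, 3.16 and 1.31. Macrophages, microglia or astrocytes can express all 3, and the part of those cells was not tested. Ackr1, a chemokine receptor of venules, was lower at -0.41 (adjusted p = 0.0462).

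Markers of other cells moved with the groups. Microglia and macrophage markers were higher in 10 of 12 (median 2.62), fibroblast markers in 8 of 8 (2.75), pericyte and smooth muscle markers in 6 of 13 tested (0.68), astrocyte markers in 6 of 9 (0.52) and blood cell markers in 3 of 7 tested (0.43), and none of these lists had a lower gene. Neuron markers were lower in 7 of 8 (median -0.81), with a summed CPM of 9171 to 10732 in Sham and 3610 to 7769 in BCAS mice, and no choroid plexus marker of 8 was called (median -0.60, and 0.71 without Sham mouse 3). Summed fibroblast markers were 135 to 168 CPM in Sham and 254 to 1028 in BCAS mice, and pericyte and smooth muscle markers 372 to 441 and 456 to 736. No defining marker of any list was at 0 in all Sham libraries. The part of these changes in the values of Tjp1, Pecam1 and Slc2a1, which other cells also express, was not tested. Nor was it tested for Cdh5, Abcb1a, Plvap and Mfsd2a.

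**Figure D5:**
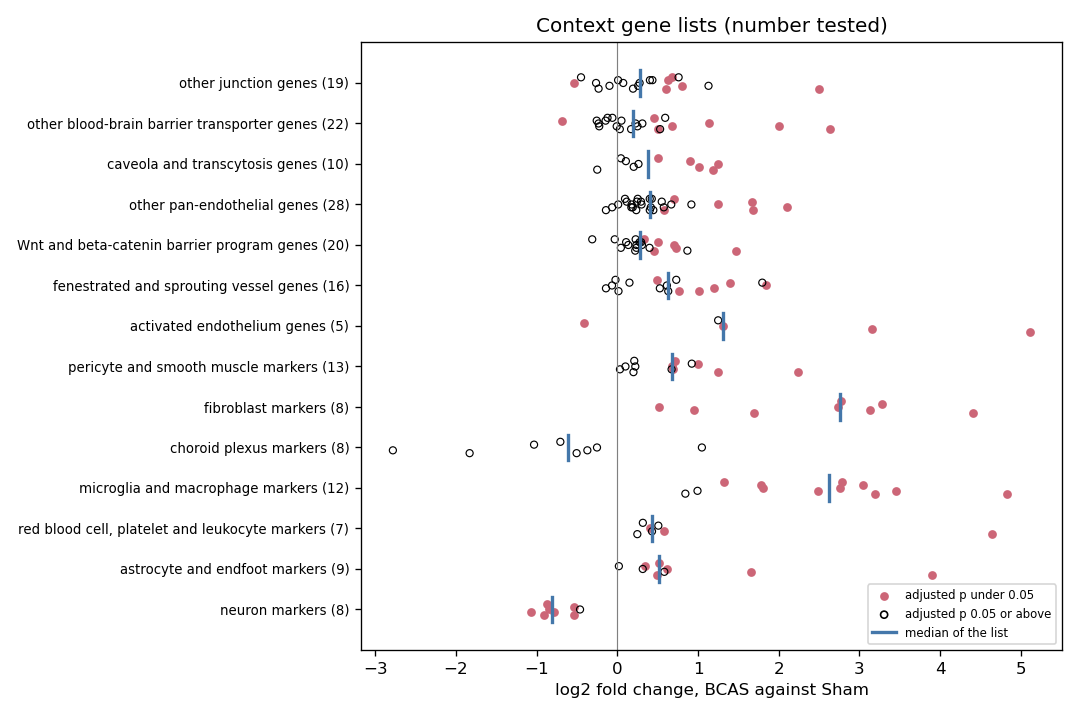
Log2 fold change of BCAS against Sham (horizontal axis) for each tested gene of 14 context lists, red where the adjusted p was under 0.05, with a blue bar at the list median. The barrier, pan-endothelial and fenestrated vessel lists centre between 0.20 and 0.62 and the activated endothelium list at 1.31, under the microglial and fibroblast lists and above the neuron list.

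The genes with patterns most like those of Plvap and Cdh5 were listed by Pearson's r of log2 CPM over the 8 libraries among the 12437 genes that averaged 100 counts or more. The points share the groups and BCAS mouse 1, which stood at an end for both genes, so r is a description. Nearest to Plvap were Pla2g4e (0.997), Map3k9 (0.989), Gm38393 (0.984), Acta1 (0.984) and 2210016L21Rik (0.984), none of which passed an adjusted p under 0.05. Nearest to Cdh5 were Tmem38b (0.992), Cpne3 (0.991), Mknk2 (0.991), Nudt7 (0.990) and Malt1 (0.990), all of which were higher at that threshold.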

How the data were processed

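The labels and the study's methods gave the design: 4 Sham and 4 BCAS mice, grouped by sample title, with 1 library per mouse. The authors trimmed reads with Trim Galore, aligned them to mm10 with HISAT2, sorted them with SAMtools 1.9 and deposited raw featureCounts counts per gene, without normalization. The file headers name featureCounts 2.0.1, GENCODE vM20 and no strand option, while the labels name version 1.6.3; reads from overlapping genes on opposite strands cannot be told apart. Symbols matched 54723 of 54752 gene IDs.

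Counts were normalized by TMM and tested with edgeR 4.0.16 in R 4.3.3 (filterByExpr, minimum count 10, minimum total 15; quasi-likelihood F-test; no covariates; Benjamini-Hochberg over 17136 genes; calls at an adjusted p under 0.05). SE is the log2 fold change over the root of F. Ratios were taken on log2 CPM (prior count 2), with exact two-sided permutation tests over 70 arrangements. No 2 libraries were identical. Scripts were tested on simulated data. Alternatives were DESeq2 1.42.0, limma 3.58.1 (voom and log2 CPM), other scalings, filters, a replicate block and leaving out each mouse. Replicate numbers did not pair mice. Context genes named are the 3 of each list with the smallest p. Tfrc, Ackr1, Esm1, Apln, Cd276, Axin2, Apcdd1, Nkd1 and the Ttr values were chosen otherwise. The genes and lists were chosen with earlier results of these data known. Promoters came from RefSeq, GRCm38.p6. Figures were drawn with matplotlib.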

Additional observations from a re-analysis of the deposited data

Results flagged for a closer look

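Ocln in the BCAS group was the only one of the 20 combinations of gene and group in which 1 mouse stood far from the other 3 by Dixon's ratio. BCAS mouse 1 was at 16.4 CPM and the other BCAS mice at 12.2 to 12.5 CPM, which gave a ratio of 0.923, over the 95% critical value for 4 samples. Such a ratio arises by chance in about 1 of 20 groups. Without this mouse the log2 fold change of Ocln was 0.31, with an adjusted p of 0.21.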

How the results depend on the processing

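With 4 mice a group, the 4 calls among the 10 genes rested on thin margins, although no gene changed sign under any of 19 alternatives. Of the alternatives, 17 called Tjp1, 16 Cdh5, 13 Pecam1 and 10 Abcb1a. Leaving out 1 mouse gave 0 (without Sham mouse 2 or 4) to 5 (without BCAS mouse 2) genes higher and 0 to 1 with a log2 fold change above 1, the latter being Cdh5 without BCAS mouse 2. Tested against a log2 fold change of 1, 0 of the 10 genes were higher, and of all genes 739 were higher and 5 lower. Over all genes, leaving out 1 mouse gave 2053 to 4450 higher and 418 to 3426 lower. The main counts were 3291 higher and 2199 lower (59.9% higher), while scaling by library size alone gave 1294 lower (75.5% higher) and voom with sample quality weights 3855 lower. The replicate numbers share only a number (correlations of deviations from -0.10 to 0.00, and 0 of 4 Sham mice closest to their own number). With the replicate block 1127 genes were lower (68.2% of calls higher) and 3 of the 10 genes higher, Abcb1a having an adjusted p of 0.0615. The Plvap to Cdh5 difference lay between -1.55 and -0.89 with 1 mouse left out. Among the gene pairs, Plvap over Mfsd2a changed sign, to 0.14 without BCAS mouse 1. Of the context lists, the choroid plexus median changed sign, to 0.71 without Sham mouse 3, and 43 of 420 counts and medians of the context lists moved. Causes were not tested. The 10 genes averaged 172 (Plvap) to 2967 (Tjp1) counts a library, and an effect of depth was not tested.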
